A study of Mus musculus with 2 samples.

Results

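The replication-dependent histone genes are the 70 mouse genes whose symbols start with Hist1h, Hist2h, Hist3h or Hist4h in the GENCODE M21 annotation of mm10, out of 53843 annotated genes on the autosomes and X. They comprised 6 genes for the linker histone H1, 20 for H2A, 19 for H2B, 12 for H3 and 13 for H4, and 67 of them were annotated as protein-coding. Their chromatin was read by single-cell ATAC-seq, in which a transposase cuts open DNA in each nucleus, in hematopoietic stem cells (HSCs) of C57BL/6 bone marrow, gated as Lin-, CD34-, CD48-, Flt3-, IL-7Rα-, CD150+, Sca-1+ and c-kit+. The young library came from animals aged 10 weeks and the aged library from animals aged 20 months, with 1 library per age and no transgene or treatment in either. The methods describe female mice, and the number of animals behind each library is not given in the sources used here.

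With 1 library per age, differences between ages cannot be told apart from differences between libraries, no test was possible, and the 95% intervals below cover counting error only. The barcodes kept were those called as cells with 3000 to 20000 in-peak fragments, 4887 of the young library and 3405 of the aged. They held 50069575 and 38663214 unique fragments, with medians of 9890 and 11020 per cell. Values are fragments per 1000000 in-peak fragments of the kept cells (FPM). At the 5' ends of 7 HSC marker genes the summed level was 80.5 FPM in young and 80.3 FPM in aged cells. Kit (26.9 and 25.6 FPM) and Hlf (26.3 and 24.7 FPM) were highest. Of the 5 with at least 200 fragments over both libraries, 1 was past 1.2-fold higher, Slamf1 (4.84 and 6.65 FPM). Over all protein-coding promoters 8.33% were. The median log2 ratio of the 5 was -0.07. Ly6a, the gene of Sca-1, had 1.75 and 1.36 FPM and Mecom 0.195 and 0.226 FPM, both under that minimum. The sums were 10.8 and 12.4 FPM for 3 B cell markers, 1.07 and 0.646 FPM for 3 T cell markers, 9.65 and 9.30 FPM for 3 erythroid markers and 2.70 and 2.78 FPM for 3 granulocyte markers, and none of these 12 genes was at 0 in either library. The 4 genes of the gate's negative markers summed to 44.5 FPM in young and 34.2 FPM in aged cells, and the part of this difference in the results below was not tested. Of the 3 measured, Cd48 (4.72 and 3.29 FPM) and Flt3 (25.8 and 19.4 FPM) were past 1.2-fold lower, against 3.82% of all protein-coding promoters.

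Core histones H2A, H2B, H3 and H4 form the nucleosome, and H1 binds the DNA between nucleosomes. The genes studied here supply histones for new chromatin during S phase: NPAT, held in the histone locus body, activates their transcription, and their mRNAs end in a conserved stem-loop bound by SLBP in place of a poly(A) tail. They lie in clusters, and many H2A and H2B genes stand head to head with a shared stretch of promoter between them.

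The sequences show this family's layout and which of its promoters can be measured. A stem-loop, searched as a stem of 6 bases starting with GG and a loop of 4 bases starting with TT with at most 1 mismatch in the stem, was found in the 150 bases after the coding end in 63 of 67 coding members, against 73 of 21688 other protein-coding genes. It was not matched in Hist1h4a, Hist1h3g, Hist1h2an and Hist2h2be. The stem-loop letters of Hist1h1c were the same in 41 of the 63 genes, of types H1, H2A, H2B and H3, and those of Hist1h4h were shared by 8 genes, all of type H4. The stem-loop is in capitals in 1 gene of each type, read from the GRCm38.p6 genome on the gene's strand, at chr13:23739512-23739527 (plus), chr13:23683477-23683492 (minus), chr13:23684647-23684662 (plus), chr13:23761890-23761905 (minus) and chr13:23531458-23531473 (plus).
Hist1h1c: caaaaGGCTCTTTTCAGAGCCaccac
Hist1h2ac: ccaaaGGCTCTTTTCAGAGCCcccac
Hist1h2bc: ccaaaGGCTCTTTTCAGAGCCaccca
Hist1h3a: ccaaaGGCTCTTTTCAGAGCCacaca
Hist1h4h: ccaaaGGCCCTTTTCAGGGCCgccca

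Motifs known from histone promoters were searched on both strands in the 250 bases upstream of each annotated 5' end, and matches were allowed to overlap. The octamer ATTTGCAT, the site of POU factors, was in 8 of 20 H2A and 9 of 19 H2B promoters, in no H1, H3 or H4 promoter, and in 1.46% of all protein-coding promoters. CCAAT was in all 20 H2A and all 19 H2B promoters, in 5 of 6 H1, 9 of 12 H3 and 4 of 13 H4 promoters, and in 35.8% of all promoters. GGTCCG, part of the H4 element called site II, was in 12 of 13 H4 promoters, in 2 of the other 57 members and in 7.75% of all promoters. AAACACA, the H1 box, was in 4 of 6 H1 promoters against 5.69% of all promoters, and TATAAA was in 34 of the 70 members against 11.5%. Neighbouring head-to-head genes can share 1 match, so these counts are not independent.

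Shown are the stretches between the 5' ends of the 2 head-to-head pairs with the lowest ratios of aged to young, on the plus strand at chr13:23571221-23571395 and chr13:23574197-23574380, and the 200 bases upstream of an H1 gene on the plus strand at chr13:23738608-23738807 and of the most open H4 gene on the minus strand at chr13:23761231-23761430. Capitals mark the motifs listed above on either strand. Hist1h4a is the H4 promoter without GGTCCG.
Hist1h2ae-Hist1h2bg: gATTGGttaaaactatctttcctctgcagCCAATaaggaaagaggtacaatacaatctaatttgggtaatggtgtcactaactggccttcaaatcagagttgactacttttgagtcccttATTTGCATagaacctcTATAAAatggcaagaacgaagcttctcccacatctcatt
Hist1h2bf-Hist1h2ad: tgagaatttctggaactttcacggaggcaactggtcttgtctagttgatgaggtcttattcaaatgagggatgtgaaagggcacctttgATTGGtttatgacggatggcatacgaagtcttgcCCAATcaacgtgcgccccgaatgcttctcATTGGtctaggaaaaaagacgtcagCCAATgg
Hist1h1c: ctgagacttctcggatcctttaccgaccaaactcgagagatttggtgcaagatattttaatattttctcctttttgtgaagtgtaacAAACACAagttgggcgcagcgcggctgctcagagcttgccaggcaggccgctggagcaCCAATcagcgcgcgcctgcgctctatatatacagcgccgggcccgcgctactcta
Hist1h4a: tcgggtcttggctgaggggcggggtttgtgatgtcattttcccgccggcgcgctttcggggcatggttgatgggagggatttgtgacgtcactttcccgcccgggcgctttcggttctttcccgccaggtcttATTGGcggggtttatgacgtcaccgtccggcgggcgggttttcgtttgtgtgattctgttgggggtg

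Part of the family cannot be read from these libraries. No fragment was listed within 500 bp of the 5' end of Hist1h2bq, Hist1h2ao, Hist1h2ap or Hist1h2br in either library, which allows, with a one-sided limit of 3 fragments, up to 0.0729 FPM in young and 0.0968 FPM in aged cells for fragments that can be placed. The intervals in the plot of levels are two-sided and reach 0.0897 and 0.119 FPM. None of the 50-base words of these 4 windows occurred only once in the genome. Hist1h2bq shared 99.8% of its words with Hist1h2br, and Hist1h2ao shared 96.8% with Hist1h2ap. The stretches between the genes of these copies are printed to show the likeness, at chr13:21810198-21810464 on the plus strand and chr13:21833508-21833742 on the minus strand, with CCAAT in capitals on either strand.
Hist1h2bq-Hist1h2ao: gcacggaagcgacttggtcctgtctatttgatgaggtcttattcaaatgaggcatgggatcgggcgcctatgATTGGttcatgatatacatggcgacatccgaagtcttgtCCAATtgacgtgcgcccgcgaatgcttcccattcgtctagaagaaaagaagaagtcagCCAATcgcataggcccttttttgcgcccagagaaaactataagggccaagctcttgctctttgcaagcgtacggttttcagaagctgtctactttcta
Hist1h2br-Hist1h2ap: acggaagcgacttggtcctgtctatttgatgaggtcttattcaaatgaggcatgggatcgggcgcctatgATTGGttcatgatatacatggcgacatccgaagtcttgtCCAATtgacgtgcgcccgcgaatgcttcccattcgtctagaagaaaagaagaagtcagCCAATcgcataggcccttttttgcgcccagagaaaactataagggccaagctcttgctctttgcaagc

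Of the 70 members, 58 had at least 200 fragments over both libraries. The other 12 were these 4 genes and Hist1h4m, Hist1h4n, Hist1h1d, Hist1h1t, Hist1h2ba, Hist1h2aa, Hist2h3c2 and Hist2h3c1. Hist1h4m and Hist1h4n shared 94.2% of their words and had 42 and 78 fragments in young and 53 and 39 in aged cells. Hist2h3c1 and Hist2h3c2 shared 93.2% of theirs. Fragments of such copies may be assigned to either or to none, so their single values are uncertain. The histone pair of the testis, Hist1h2ba and Hist1h2aa, had 1 fragment in young and 2 in aged cells at each 5' end, although 86.3% and 99.2% of its words were found once. Hist1h1d had 8 and 3 fragments at its annotated 5' end and 498 and 352 at its coding start, 1828 bp away. Hist1h2be, whose annotated 5' end lies 35168 bp from its coding start, had log2 ratios of -0.08 at the former and -0.01 at the latter.

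Among the 58 measured promoters, 0 were at least 1.2-fold higher and 13 were at least 1.2-fold lower in aged HSCs. Over all 13560 measured protein-coding promoters, 8.33% were higher and 3.82% were lower by the same fold. Windows of head-to-head genes overlap and share fragments, so the 13 calls are not independent. Over the members, aged relative to young levels had a median log2 ratio of -0.16 (range -0.65 to 0.08), against -0.07 over all protein-coding promoters. Among the 6865 promoters with at least as many fragments as the median member, the median was -0.10, with 20 higher and 134 lower. Scaled to fragments at all protein-coding promoters in place of in-peak fragments, 6 members were lower against 1.94% of all promoters, and the median was -0.094 against -0.0024, so the count moves with the scaling for both.

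Summed over the 70 windows with each fragment counted once, histone promoters took 951 FPM (941 to 960) in young and 855 FPM (844 to 865) in aged HSCs, a ratio of 0.899 (0.885 to 0.913). The same ratio over all protein-coding promoters was 0.957. By type it was lowest for H2B and H2A and highest for H1 and H4. The ratio was 0.939 (0.884 to 0.998) for H1, 0.876 (0.854 to 0.90) for H2A, 0.868 (0.847 to 0.890) for H2B, 0.904 (0.871 to 0.938) for H3 and 0.926 (0.899 to 0.954) for H4. The intervals of all types but H1 lay below the ratio over all promoters, and that of H2B lay below that of H4. These intervals cover counting error of the sums and not the spread between genes. Single measured genes overlapped between types, with log2 ratios of -0.34 to -0.07 for H2B and -0.30 to -0.04 for H4. A difference between types was not tested. Over the 6865 promoters with at least as many fragments as the median member the ratio was 0.936. This lay inside the intervals of H1, H3 and H4 and above those of H2A and H2B. The H2A and H2B values share the fragments of head-to-head pairs.

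**Figure D1:**
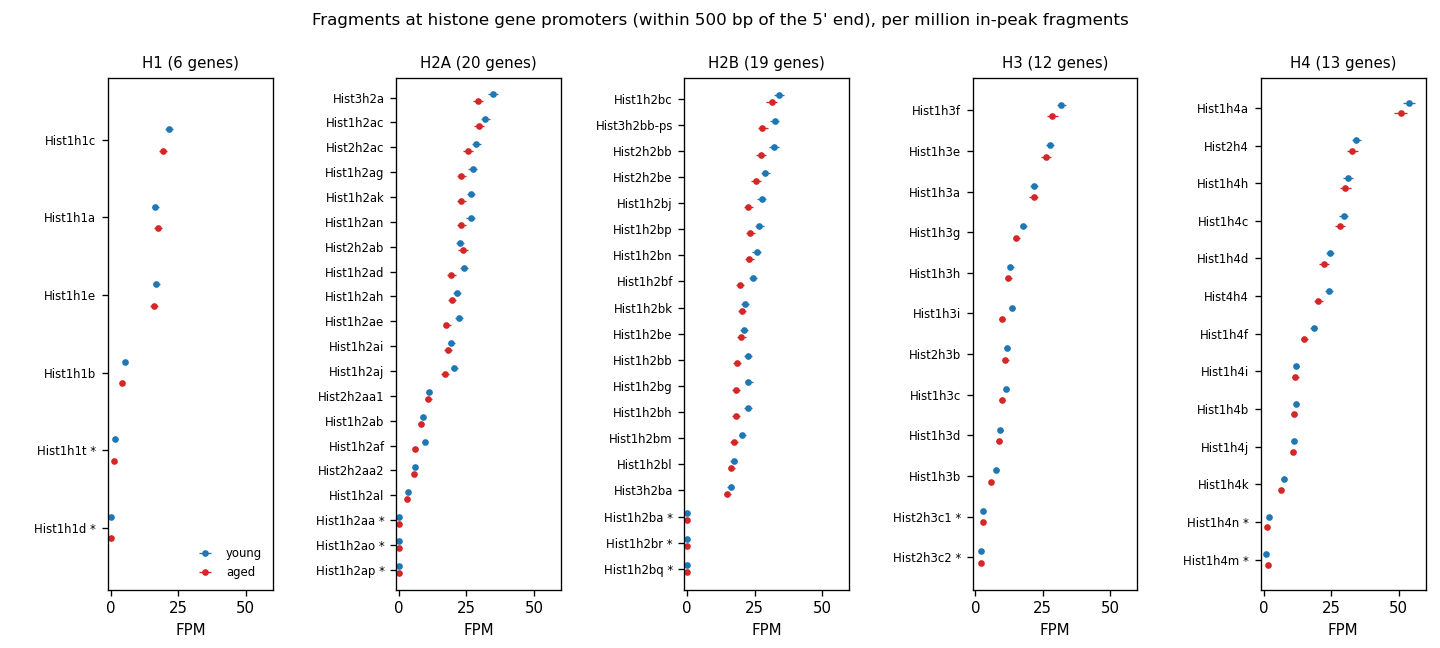
Fragments within 500 bp of the annotated 5' end of each of the 70 members, in FPM (x axis), for the young (blue) and aged (red) library, by histone type and ordered by level. Bars are exact Poisson 95% intervals and an asterisk marks members with fewer than 200 fragments over both libraries. The aged point lies left of the young one for all but 2 of the 58 members without an asterisk.

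The 6 linker histone genes, the fewest of any type, took the smallest sum, 62.1 FPM in young and 58.3 FPM in aged cells. The sum holds Hist1h1d only at its annotated 5' end. Per measured gene the young median was 16.7 FPM for H1, against 13.2 FPM for H3. Log2 ratios of the H1 genes lay on both sides of 0. Hist1h1c had 21.6 FPM (20.2 to 23.1) in young and 19.2 FPM (17.7 to 20.8) in aged cells, a log2 ratio of -0.17 (-0.32 to -0.02). Hist1h1e had 16.9 and 16.04 FPM, and its interval held 0. Hist1h1a had 16.5 and 17.5 FPM, a log2 ratio of 0.08 (-0.08 to 0.25), which was the highest of the measured members and whose interval also held 0. Hist1h1b, which codes for H1.5, had the lowest measured level of the type with 5.42 FPM in young and 4.29 FPM in aged cells, a log2 ratio of -0.33 (-0.66 to -0.02).

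H2A genes code for the histone that forms the dimer with H2B. Hist3h2a was the most open in young cells, with 34.8 FPM (33.0 to 36.7) in young and 29.3 FPM (27.4 to 31.2) in aged cells. Hist1h2ac had 32.0 and 29.6 FPM, and Hist2h2ac had 28.7 and 25.5 FPM. All 3 were lower in aged cells in value, and the intervals of the 2 libraries did not overlap for Hist3h2a. The lowest ratio of the family was at Hist1h2af, with 9.56 FPM in young and 6.07 FPM in aged cells, a log2 ratio of -0.65 (-0.91 to -0.40). Hist1h2ae had 22.2 and 17.6 FPM (log2 ratio -0.34, -0.49 to -0.18). Hist2h2ab had 22.7 and 23.7 FPM and was the only one of the 17 measured H2A genes above 0, at 0.06 (-0.08 to 0.20). Hist2h2aa1, with 11.2 and 10.9 FPM, was at -0.04, but only 35.8% of its words were found once. Of 17 measured H2A promoters, 4 were past 1.2-fold lower, against 3.82% of all promoters, with Hist1h2ad and Hist1h2aj as the others. Hist1h2aj is annotated as a pseudogene. Its head-to-head partner Hist1h2bm, whose window overlaps, was inside the 1.2-fold limit at -0.25.

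All 16 measured H2B promoters were lower in value in aged cells, by log2 ratios between -0.34 and -0.07, and their levels lay within a narrow range of 16.1 to 34.0 FPM in young cells. Hist1h2bc was the most open with 34.0 FPM (32.2 to 35.8) and 31.2 FPM (29.3 to 33.3). Hist3h2bb-ps, annotated as a pseudogene and head to head with Hist3h2a, had 32.4 and 27.9 FPM. Hist2h2bb had 32.2 and 27.2 FPM. Hist3h2ba, the other H2B gene of the Hist3 cluster, had 16.1 and 14.8 FPM (log2 ratio -0.12, -0.30 to 0.05). The lowest ratio of the type was at Hist1h2bg, the partner of Hist1h2ae, with 22.7 and 18.0 FPM and a log2 ratio of -0.34 (-0.49 to -0.18). Against 3.82% of all promoters, 5 of the 16 were past 1.2-fold lower, namely Hist1h2bg, Hist1h2bf, Hist1h2bh, Hist1h2bb and Hist1h2bj, all in Hist1.

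The measured H3 promoters had 7.78 to 31.9 FPM in young cells, with wider ranges for H2A (3.38 to 34.8 FPM) and H4 (7.42 to 53.9 FPM). The lowest H2A value was that of Hist1h2al, annotated as a pseudogene. Hist1h3f had 31.9 FPM (30.2 to 33.6) in young and 28.5 FPM (26.7 to 30.4) in aged cells at its annotated 5' end. That end lies 433 bp from its coding start, and its window overlaps that of Hist1h2bh. At the coding start Hist1h3f had 22.5 and 21.4 FPM, a log2 ratio of -0.07. Hist1h3e had 27.6 and 26.2 FPM at either position. Hist1h3a had 21.6 FPM in both libraries, with an interval of the log2 ratio from -0.15 to 0.15. By contrast Hist1h3i had 13.5 FPM in young and 9.84 FPM in aged cells (log2 ratio -0.45, -0.66 to -0.25). Hist1h3b had 7.78 and 5.75 FPM (-0.43, -0.71 to -0.17). Only Hist1h2af had a lower ratio, and the intervals of these 2 genes did not overlap that of Hist1h3a.

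H4 promoters held the most open member and had the median nearest to 0 of the types, at -0.09. Hist1h4a had 53.9 FPM (51.7 to 56.2) in young and 50.7 FPM (48.2 to 53.3) in aged cells, a log2 ratio of -0.09 (-0.18 to 0.01). Hist2h4 had 34.3 and 32.9 FPM, and Hist1h4h had 31.2 and 30.2 FPM. Hist1h4j, with 11.3 and 10.9 FPM, was among the 5 highest ratios at -0.04 (-0.25 to 0.16). Hist4h4, which stands alone on chromosome 6, had 24.1 FPM (22.6 to 25.7) and 20.2 FPM (18.6 to 21.8), a log2 ratio of -0.26 (-0.40 to -0.11) just inside the 1.2-fold limit. Hist1h4f was the 1 of 11 measured H4 promoters past it, with 18.5 and 15.01 FPM, against 3.82% of all promoters.

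**Figure D2:**
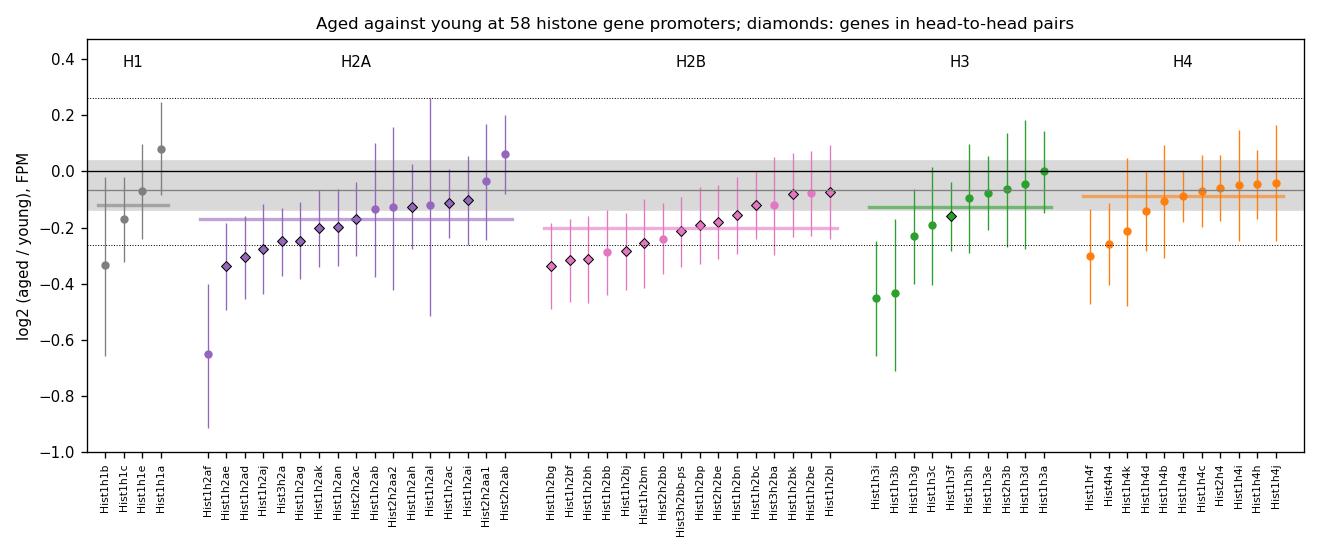
Log2 ratio of aged to young FPM (y axis) at the 58 members with at least 200 fragments, by type and ordered by ratio, with 95% intervals of counting error. Diamonds are genes in head-to-head pairs, thick lines the medians of each type, the grey line and band the median (-0.07) and quartiles of all protein-coding promoters, and dotted lines 1.2-fold. Hist1h2af lies lowest at -0.65, and 2 members lie above 0.

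Head-to-head pairs numbered 15, of which 14 joined an H2A with an H2B gene, at distances of 173 to 660 bp. In the 12 with at least 200 fragments the whole stretch was lower in aged cells in value, with ratios from 0.798 to 0.958. The pair Hist1h2ae and Hist1h2bg had 23.4 and 18.7 FPM, a ratio of 0.798 (0.719 to 0.886), and the pair Hist1h2bf and Hist1h2ad had 24.9 and 19.9 FPM, a ratio of 0.799 (0.721 to 0.883). These pairs lie next to each other in the largest cluster. The next lowest ratio was 0.840, at the pair Hist1h2ag and Hist1h2bj, which is inside the 1.2-fold limit. The windows of paired genes overlap and share fragments, so 1 difference can be called at both genes. Counts of genes in pairs are therefore not independent. The median log2 ratio was -0.20 over the 24 measured genes in pairs, of which 7 were past 1.2-fold lower, and -0.11 over the 34 other measured genes, of which 6 were, where 3.82% of all promoters were. It was -0.21 over the 15 measured members with an octamer and -0.13 over the 43 without one. Octamers were found in H2A and H2B promoters only and most pairs join these types, and the parts of octamer, type and pairing were not tested.

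Relative to in-peak fragments, short fragments at histone promoters were lower in aged cells in value, and intermediate and long ones were not. Short fragments were shorter than the DNA wrapped on 1 nucleosome, intermediate ones up to 2 times that length, and long ones beyond. At histone promoters, short fragments had 589 FPM in young and 484 FPM in aged cells, a ratio of 0.821 (0.805 to 0.838). Intermediate fragments had 267 and 269 FPM, a ratio of 1.01 (0.982 to 1.04), and long ones 95.2 and 102 FPM, a ratio of 1.07 (1.02 to 1.12). At other protein-coding promoters the ratios were 0.911 for short, 1.03 for intermediate and 1.15 for long fragments, and over all fragments of the kept cells 0.943, 1.11 and 1.28, so the aged library held longer fragments as a whole. Divided by the ratio at other promoters, histone promoters were at 0.902 (0.884 to 0.921) in short, 0.979 (0.952 to 1.01) in intermediate and 0.926 (0.883 to 0.971) in long fragments.

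In short fragments the intervals of H2A and H2B lay below that of H4, in counting error only. H2A and H2B share the fragments of head-to-head pairs, so their values are not independent. With each fragment of both types counted once, the ratio in short fragments was 0.775 (0.753 to 0.799). For H2B the ratio was 0.759 (0.735 to 0.784) in short and 1.04 (0.997 to 1.09) in intermediate fragments, and for H2A 0.780 (0.754 to 0.808) and 1.03 (0.984 to 1.08). For H4 it was 0.892 (0.859 to 0.927) in short and 0.960 (0.908 to 1.01) in intermediate fragments, and H3 lay between, at 0.837 and 0.971. Divided by the ratio at other promoters, short fragments were at 0.833 (0.807 to 0.860) for H2B and 0.980 (0.943 to 1.02) for H4, and intermediate fragments at 1.01 (0.967 to 1.06) for H2B and 0.931 (0.881 to 0.983) for H4. On the same scale long fragments were at 0.957 (0.890 to 1.03) for H2B and 0.905 (0.825 to 0.991) for H4. The share of short fragments went from 63.7% to 55.7% at H2B promoters and from 61.6% to 59.3% at H4 promoters. At other protein-coding promoters it went from 68.9% to 65.6%.

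**Figure D3:**
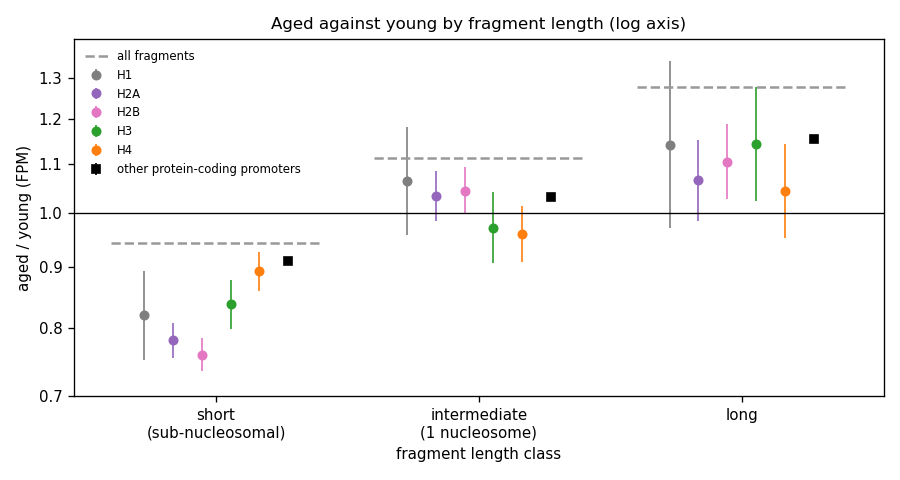
Ratio of aged to young FPM (y axis, log scale) in 3 classes of fragment length at the promoters of each histone type (circles) and at other protein-coding promoters (squares), with 95% intervals of counting error. Dashed lines are the ratio over all fragments of the kept cells. In short fragments H2B (0.759) and H2A (0.780) lie lowest and H4 (0.892) nearest to other promoters (0.911).

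Cuts at these genes lay mainly upstream of the coding start. Counted around the coding start in bins of 25 bp over the 55 measured members with a coding sequence, cuts peaked 125 to 100 bp upstream in both libraries. Cuts between head-to-head genes were counted for both genes. The H2A and H2B profiles therefore share cuts, and the part of this sharing in their upstream shares and peaks was not tested. The peak bin was the same for H2A and H3 in both libraries, and for H2B it lay farther out, starting 200 bp upstream in young and 175 bp upstream in aged cells. Of the cuts within 500 bp of the coding start, the 300 bp upstream held 71.5% in young and 68.6% in aged cells at H2B genes and 54.1% and 52.5% at H4 genes. The peak of H2B stood 21.05 times over the level beyond 750 bp in young and 16.7 times in aged cells, and that of H3 4.18 and 4.39 times.

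**Figure D4:**
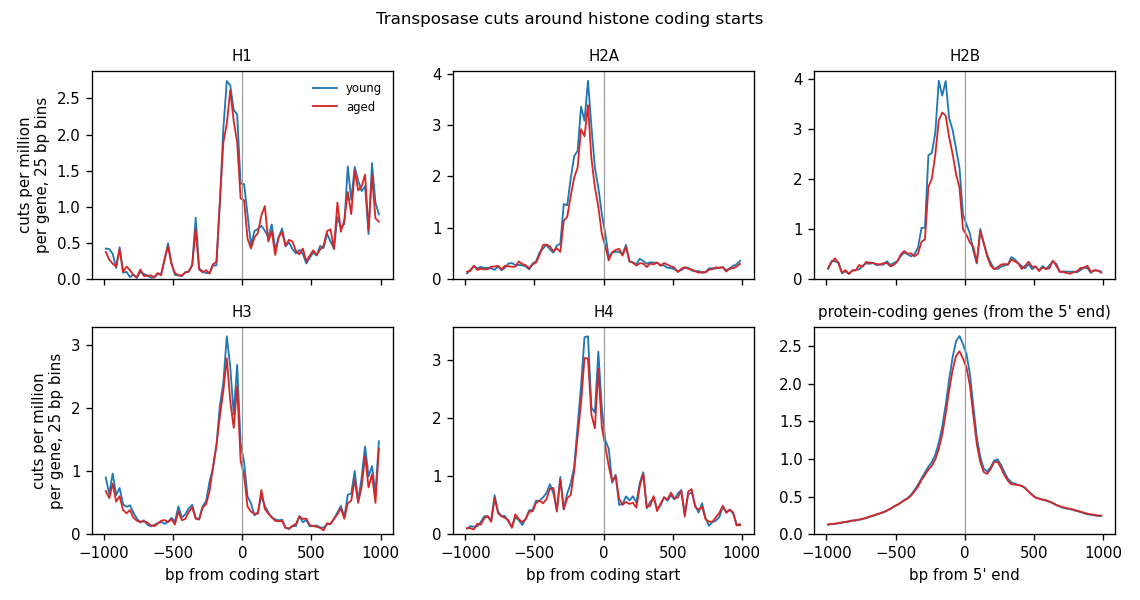
Transposase cuts per gene and 1000000 in-peak fragments in bins of 25 bp (y axis) by distance from the coding start (x axis), for each histone type in the young (blue) and aged (red) library, with protein-coding genes by distance from their 5' end in the last panel. The peak is upstream of the coding start in each type, and the lines are farthest apart at the peaks of H2A and H2B. Cuts between head-to-head genes are counted for both genes.

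The members fell into 8 groups with gaps of over 100 kb between them. The largest held 29 genes over 233 kb of chromosome 13 at chr13:23531050-23764406, with 1 other protein-coding gene, Hfe. The next held 19 genes over 122 kb of the same chromosome at chr13:21715763-21837530, and the Hist2 cluster held 10 genes over 50.3 kb at chr3:96219865-96270132. Over the whole span, the ratio of fragment density in aged to young cells was 0.919 (0.903 to 0.935) for the 29-gene, 0.885 (0.855 to 0.915) for the 19-gene and 0.914 (0.88 to 0.949) for the Hist2 cluster. It was 0.90 for the 5-gene Hist1 cluster between the first and second, and 0.867 for the 3 Hist3 genes on chromosome 11. For Hist4h4 alone it was 0.965 (0.879 to 1.06) over its span, 1.07 away from 5' ends and 1.07 in the 1 Mb on either side. Chromosomes 13, 3, 11 and 6 as a whole were at 1.04, 1.05, 0.992 and 1.04. These are not matched to the clusters. In the 29-gene span 19361 of 31433 young fragments lay within 500 bp of members' 5' ends, and all protein-coding promoters were at 0.957. The scaling is to in-peak fragments, which were 82.1% of young and 80.1% of aged fragments.

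Within the 29-gene cluster the ratio was 0.892 (0.872 to 0.912) within 500 bp of the members' 5' ends and 0.960 (0.933 to 0.988) away from all annotated 5' ends, the latter turning to 1.003 when scaled to promoter fragments. The 1 Mb on either side was at 0.987. In the 19-gene cluster the corresponding ratios were 0.869, 0.922 and 0.982, and in the Hist2 cluster 0.912, 0.916 and 0.956. The 0.916 had an interval from 0.835 to 1.005 and turned to 1.07 with cells thinned to 3000 fragments. The stretch of 169 kb between the 29-gene cluster and the testis pair had a ratio of 0.870, while the gaps between the other Hist1 clusters were at 0.992 and 1.02. Among the 54 measured bins of 5 kb inside the clusters, 6 were at least 1.2-fold lower and 1 was higher, against 11.1% lower and 20.6% higher over all 79317 measured bins of the genome. The lower bins were near the genome's share. Bins of the genome were not matched to those of the clusters in fragments, so these counts are no result about the clusters.

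**Figure D5:**
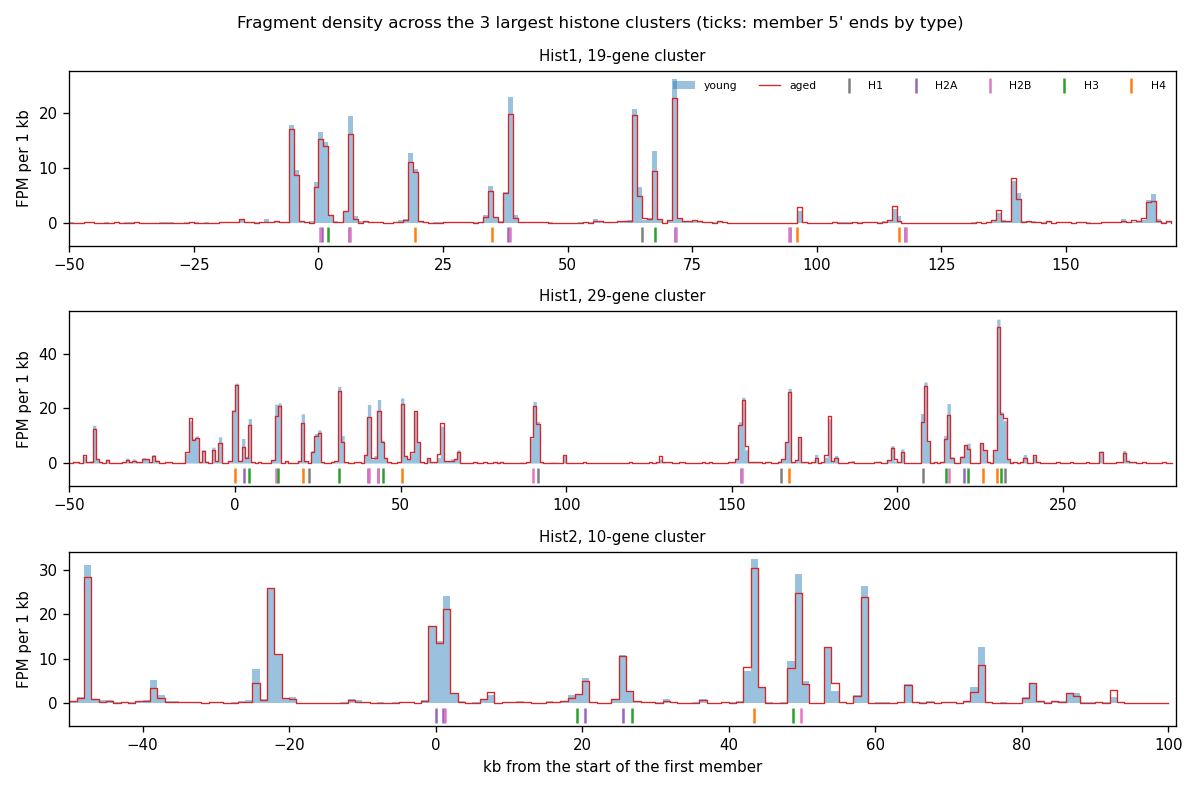
FPM in bins of 1 kb (y axis) across the 3 largest histone clusters by distance from the start of the first member in kb (x axis), for the young (filled) and aged (line) library. Ticks under each panel mark the 5' ends of the members by type. Fragments lie in narrow peaks at most ticks, and no fragments were listed at the ticks of Hist1h2bq, Hist1h2ao, Hist1h2ap and Hist1h2br in the 19-gene cluster.

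Per cell, histone promoters gave few fragments. With each cell thinned to 3000 unique fragments, the 70 windows together held a mean of 2.37 fragments (SD 1.56 over 4887 cells) in young and 2.07 (SD 1.45 over 3405 cells) in aged HSCs. The share of cells with at least 1 such fragment was 90.8% and 87.7%. Variance over mean was 1.03 and 1.01 in the 2 libraries, where independent random counts would give 1. Thinning to few fragments moves this value toward 1, so it cannot show whether cells differed at these promoters. It was 10.3 and 8.04 at other protein-coding promoters, where counts were far higher. Other protein-coding promoters held means of 704 and 653 fragments per thinned cell. Fragments at histone promoters and at 16 S phase genes, which were thinned together from the same cells, had a Pearson correlation of 0.05 in young and 0.01 in aged cells. Against other protein-coding promoters it was 0.13 and 0.10, and in counts this sparse these values are a description only.

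The genes that act on this family had median log2 ratios nearer to 0 than the members' -0.16. The median was -0.10 over the 6865 promoters with at least as many fragments as the median member. By type it was -0.20 for H2B, -0.17 for H2A, -0.13 for H3, -0.12 for H1 and -0.09 for H4. Npat had 57.5 FPM in young and 52.8 FPM in aged cells (log2 ratio -0.12, -0.21 to -0.03), and Slbp had 49.1 and 42.5 FPM (-0.21, -0.31 to -0.11). Of 17 genes of histone transcription and 3' end formation, 16 were measured and 0 were past 1.2-fold, with a median of -0.10. The 8 histone chaperone genes also had 0 past 1.2-fold and a median of -0.10. Of 16 S phase genes 1 was past 1.2-fold lower, Cdc6, which loads the replicative helicase, with 34.0 and 28.0 FPM, and their median was -0.10. Of 11 replication-independent histone genes, whose products enter chromatin outside S phase, 2 were past 1.2-fold higher and the median was -0.13. These were H2afy2, which codes for a macroH2A, with 4.91 and 6.10 FPM, and H3f3b, which codes for H3.3, with 1.29 and 4.78 FPM at its annotated 5' end. H3f3b had 53 young and 148 aged fragments and reached the minimum of 200 only through the aged library, where it was high, so its call supports nothing. Over all promoters 3.82% were lower and 8.33% higher, so counts this small in lists this short are no result about the lists, and the difference between them and the histone clusters was not tested.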

How the data were processed

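Young and aged HSC libraries (1 each) were made with a droplet single-cell ATAC kit. Per the methods and the labels, the authors aligned reads to mm10 and called cells with Cell Ranger ATAC, which keeps confidently placed, deduplicated pairs and shifts their ends for the transposase. The deposited files used here hold counts made by the authors, with no normalization: read pairs per fragment, and fragments per barcode. Of the kept barcodes, 26 occur in both libraries. No doublet caller was run here.

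A fragment counted once in a window if at least 1 end lay within 500 bp of the annotated 5' end, and by its midpoint in clusters. Counts were divided by in-peak fragments of the kept cells (41125001 young, 30980441 aged). Log2 ratios used a pseudocount of 1 fragment and members with at least 200 fragments over both libraries. Intervals are exact (Poisson, binomial share) at 95%, and order statistics of medians served only to compare settings. The genome was GRCm38.p6, of the same build, and no fragment lay beyond a chromosome's end. Python 3.11.15, numpy 2.4.6, pandas 2.3.3, scipy 1.17.1 and numba 0.67.0 were used. The counting and fold steps were tested on simulated data.

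Members, gene lists and motifs were chosen with earlier results of these data known. Named genes were the 3 most open of each type, the 5 highest and 5 lowest ratios, Hist3 and Hist4 members, members with fewer than 200 fragments, Npat, Slbp and list genes past 1.2-fold. Other members past 1.2-fold, the pseudogene Hist1h2al, the values of the members with few fragments and the head-to-head pairs were added after their values were seen. Alternatives changed the scaling, window, cells, thinning, fragment length, pseudocount, filter and cluster gap.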

Additional observations from a re-analysis of the deposited data

How the results depend on the processing

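Of 209 alternative values, 179 stayed within the main interval or within 1.5 times the main count, 29 moved and 1 reversed. A value was called reversed only where its main interval excluded no difference and the alternative lay on the other side. Ratios that crossed 1 from an interval holding 1 were counted as stayed or moved, such as the Hist2 cluster outside promoters. Scaled to all unique fragments, the summed ratio was 0.877, that of H2B 0.847 and the 29-gene cluster 0.897. Scaled to fragments at all protein-coding promoters, the median was -0.094 (all promoters -0.0024), 6 members were lower (all promoters 1.94%), the summed ratio was 0.940, H2A was at 0.916, H2B at 0.908, H3 at 0.945 and H4 at 0.968, and the 19-gene, 29-gene and Hist2 clusters were at 0.925, 0.961 and 0.955. The ratio outside promoters in the 29-gene cluster reversed to 1.003 under that scaling, by its construction, since promoter fragments were lower in the aged library. With windows of 250 bp the summed ratio was 0.884, and without the minimum of 200 fragments 3 of 66 members were higher (all promoters 21.2%) and 16 lower (all promoters 13.3%). Counting fragments under 100 bp as short gave shares of 50.8% and 46.7%, a difference of -4.08 percentage points. With cells thinned to 3000 fragments, the Hist3 cluster was at 0.805, 15 of 49 members were lower (all promoters 11.5%) and the Hist2 cluster outside promoters was at 1.07. With short fragments only, scaled to in-peak fragments times the share of short fragments in each library, the median was -0.21, H2A was at 0.848, H2B at 0.825 and H4 at 0.970, the Hist3, 19-gene and 5-gene clusters were at 0.802, 0.834 and 0.839, and outside promoters the latter pair were at 0.830 and 0.606. In the main setting the 19-gene and 5-gene clusters outside promoters were at 0.922 (0.867 to 0.981) and 0.966 (0.760 to 1.23). The latter rested on 169 young and 123 aged fragments. The causes of the shifts other than by scaling were not tested.

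Restricting to members with at least 50% of words found once was chosen after seeing the data, and gave a median of -0.16 and 11 of 53 members lower, against 3.82% of all promoters without that restriction. No paired analysis was possible because each age had 1 library and the labels give no replicate numbers, and for the same reason no library could be left out. At these depths a member with 200 fragments in all has an interval much wider than 1.2-fold, so small differences at the least open members were not detectable.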
